A study of Mus musculus with 6 samples.

Results

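The immune checkpoint ligands described here are 10 genes, chosen by name from the 26082 different gene symbols of the expression table: Cd274 (PD-L1), Pdcd1lg2 (PD-L2), Cd80, Cd86, Icosl, Cd276, Lgals9, Pvr, Tnfrsf14 and Nt5e. All 10 had a line of their own. RNA-Seq was performed on MLL-AF9 cells that had been recovered by cell sorting from bone marrow of C57BL/6J mice, in 3 vehicle samples and 3 DS-5272 samples. Vehicle or DS-5272, an inhibitor of MDM2 that activates p53, was given by mouth, the drug at 80 mg per kg of body weight, and cells were taken 24 h later. Both groups carried the same transduced MLL-AF9 oncogene. The leukemia was made by retroviral transfer of MLL-AF9, coexpressed with GFP, into c-Kit+ bone marrow progenitors and transplantation into mice, so the leukemia cells grew among the normal marrow cells of the host. Levels are FPKM, numbers of sequenced fragments normalized for transcript length and library size. Depth estimated from the steps between low values was 43000000, 34900000 and 38300000 fragments in vehicle samples 1 to 3 and 32100000, 28200000 and 23400000 fragments in DS-5272 samples 1 to 3, so the treated libraries were the shallower ones.

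Checkpoint ligands sit on the surface of tumor and antigen-presenting cells and bind receptors on T cells and NK cells, where some restrain and others support activation. PD-L1 and PD-L2 bind PD-1, and interferon signaling through JAK and STAT proteins is a well-known inducer of PD-L1. Myeloid leukemia cells can carry several of these ligands, because monocytes, macrophages and dendritic cells use the same molecules when they present antigen.

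Of the 10 ligand genes, 7 averaged 1 FPKM or more across the 6 libraries and were tested with limma on log2(FPKM + 1), and 3 (Pdcd1lg2, Cd86 and Cd276) were below that level. At an adjusted p under 0.05, 5 of the 7 were upregulated in DS-5272-treated MLL-AF9 cells (Cd274, Cd80, Lgals9, Pvr and Nt5e) and 0 were downregulated; with the replicate numbers as a block, Icosl and Tnfrsf14 were called as well, 7 of the 7, while 30.3% of all tested genes were upregulated in that fit. Over all 11130 tested genes, 2697 (24.2%) were upregulated and 2451 (22.0%) downregulated, with a median log2 fold change of 0.04, and 6187 genes had an unadjusted p under 0.05. None of the ligand genes was lower at an unadjusted p under 0.05. Nt5e passed the level filter only through its DS-5272 samples, so the number of ligands that passed carries no weight of its own. All 3 DS-5272 values lay above all 3 vehicle values for 7 of the 10 ligands, 5 of them among the 7 tested, compared with 32.1% of all tested genes. When every gene above 0 in any sample was tested, 14.6% of 18149 genes were upregulated, and Pdcd1lg2 and Cd86 joined the 5 ligands above. Scaling all samples to a common total lowered the median log2 fold change of all genes by 0.24 and left 1709 genes upregulated and 3565 downregulated, so that 32.4% instead of 52.4% of the calls were rises, and the same 5 ligands were upregulated. In sorted bulk samples, fewer cells of a type and less RNA per cell cannot be told apart, and p-values measure the spread between these samples.

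**Figure D1:**
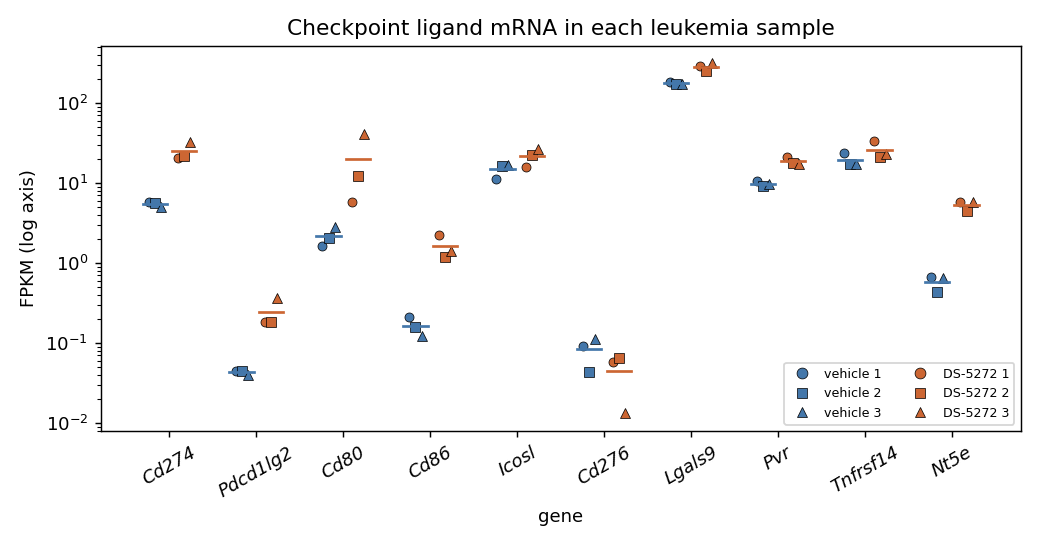
FPKM of the 10 ligand genes on a log axis in vehicle samples (blue) and DS-5272 samples (orange), with a marker shape for each replicate number and a bar at the group mean (n = 3). Cd274, Pdcd1lg2, Cd80, Cd86, Lgals9, Pvr and Nt5e have all DS-5272 points above all vehicle points, and the groups of Icosl, Cd276 and Tnfrsf14 overlap.

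Cd274 encodes PD-L1, the main ligand of the inhibitory receptor PD-1. The gene lies on the plus strand at chr19:29367455-29388095 (GRCm38). Its start faces that of Plgrkt, a plasminogen receptor gene on the minus strand, and the bases between the GENCODE exon of Plgrkt and the start of Cd274 in the RefSeq promoter table are given here because both genes of this head-to-head pair rose. The RefSeq gene table begins Cd274 further upstream, at 29362107, within the span of Plgrkt. The stretch is chr19:29367391-29367437, plus strand, from the RefSeq promoter table (GRCm38.p6).
Cd274 upstream: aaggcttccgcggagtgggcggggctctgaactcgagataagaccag
Cd274 had 5.88, 5.63 and 5.06 FPKM in vehicle samples 1, 2 and 3, compared with 20.5, 21.9 and 32.5 FPKM in DS-5272 samples 1, 2 and 3. Every treated sample was far above every vehicle sample, with DS-5272 sample 3 the highest. The mean rose from 5.52 ± 0.421 to 24.9 ± 6.56 FPKM (SD, n = 3), a 4.52-fold difference, and the log2 fold change was 1.97 ± 0.18 (SE, limma adjusted p = 0.0012). The gene was called under all 15 alternative settings, with log2 fold changes from 1.72 to 2.13. These values correspond to an estimated 701 to 915 fragments in the vehicle samples and 2235 to 2752 in the DS-5272 samples, so counting error is small beside the difference. Exons of Cd274 overlap those of AC119228.1 on the opposite strand, and although the libraries were strand-specific, the strand setting of the counting was not given in the sources used here.

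Pdcd1lg2 encodes PD-L2, the other ligand of PD-1, and lies downstream of Cd274 at chr19:29410919-29471161. Its level was 0.0448, 0.0443 and 0.0404 FPKM in the vehicle samples and 0.185, 0.181 and 0.366 FPKM in the DS-5272 samples. The groups did not overlap, but the whole signal was very low, with an estimated 3 fragments in each vehicle sample and 10, 9 and 15 in DS-5272 samples 1 to 3. Without the filter on low values the log2 fold change was 0.25 ± 0.06 (SE, limma adjusted p = 0.029), a scale on which the pseudocount of 1 understates changes of genes this low. PD-L1 mRNA thus exceeded PD-L2 mRNA by a wide margin in all 6 samples.

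Around Cd274, 16 other protein-coding genes lay within 500 kb, of which 10 were tested, 3 were upregulated and 1 was downregulated, compared with 24.2% and 22.0% of all tested genes. Jak2, the kinase that carries interferon-gamma receptor signals, rose from 16.2, 16.8 and 17.6 FPKM to 30.6, 23.2 and 32.1 FPKM (log2 fold change 0.72 ± 0.14, limma adjusted p = 0.0079), but missed the threshold after scaling to a common total (0.46, adjusted p = 0.052). Plgrkt had 44.2, 48.4 and 51.2 FPKM in vehicle samples and 67.4, 64.9 and 83.1 FPKM in DS-5272 samples (log2 fold change 0.57 ± 0.13, adjusted p = 0.012). The head-to-head partner of Cd274 therefore rose less than Cd274 itself on the log2 scale, a difference that was not tested. Ric1, a Golgi trafficking factor, was at the threshold (0.33 ± 0.11, adjusted p = 0.0498) and was called under only 3 of 15 alternatives, while with the replicate numbers as a block its adjusted p was 0.059. Rcl1, a ribosome assembly factor, fell by 0.92 ± 0.25 (adjusted p = 0.023) and lost its call when any vehicle sample was left out (adjusted p 0.06 to 0.073). Plpp6, Cdc37l1, Ak3, Ermp1, 9930021J03Rik and Ranbp6 were tested and not called, and Slc1a1, 4430402I18Rik, Insl6, Rln1, Mlana and Pdcd1lg2 were below the level filter.

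**Figure D2:**
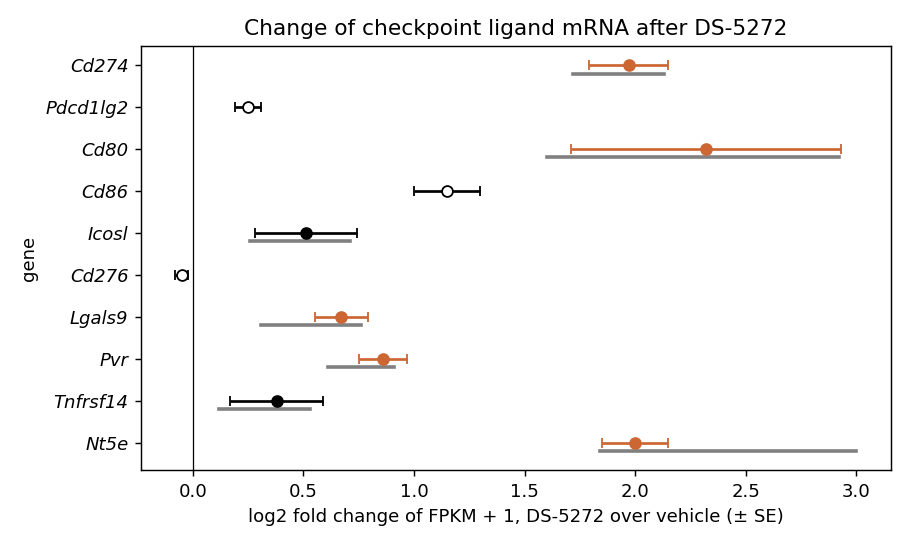
Log2 fold change of FPKM + 1 (DS-5272 over vehicle, points, with SE bars, n = 3 a group) for the 10 ligand genes, with grey bars for the range over the alternative settings. Orange points passed an adjusted p of 0.05, filled black points were tested and did not, and open points come from the fit without a filter on low values. Cd80, Nt5e and Cd274 lie near 2 on this scale, at 2.32, 2.0 and 1.97.

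Cd80 and Cd86 encode B7-1 and B7-2, which bind the activating receptor CD28 and the inhibitory receptor CTLA-4. CD80 can also bind PD-L1 on the same cell. Cd80 had 1.65, 2.08 and 2.79 FPKM in the vehicle samples and 5.84, 12.3 and 41.1 FPKM in the DS-5272 samples. All treated values were higher, and on the log2 scale they were spread more widely than for any other tested ligand, from DS-5272 sample 1 with the lowest to sample 3 with the highest value. The mean was 9.10-fold higher, and the log2 fold change was 2.32 ± 0.61 (SE, limma adjusted p = 0.021). Leaving out vehicle sample 1 or vehicle sample 2 raised the adjusted p to 0.063 in each case, and leaving out DS-5272 sample 3 lowered the log2 fold change to 1.60.

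Cd86 had 0.209, 0.158 and 0.123 FPKM in the vehicle samples, compared with 2.23, 1.20 and 1.43 FPKM in the DS-5272 samples. The groups were far apart, and here DS-5272 sample 1 was the highest, unlike for Cd80. The mean was 9.92-fold higher, on an estimated 12 to 23 fragments in vehicle and 85 to 181 in DS-5272 samples. Cd86 was below the level filter, and without that filter its log2 fold change was 1.15 ± 0.15 (SE, limma adjusted p = 0.0073). The mean of Cd80 in treated cells, 19.8 FPKM, was above that of Cd86, 1.62 FPKM, and their ranges did not overlap.

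Icosl encodes the ligand of ICOS, a costimulatory receptor of activated T cells. Its level was 11.3, 16.3 and 16.8 FPKM in vehicle and 15.8, 22.4 and 27 FPKM in DS-5272 samples. The groups overlapped, because DS-5272 sample 1 lay below vehicle samples 2 and 3, and replicate 1 was the lowest of its group on both sides. The log2 fold change was 0.51 ± 0.23 (limma adjusted p = 0.104), and with the replicate numbers as a block it was 0.51 ± 0.10 (adjusted p = 0.0088). Without DS-5272 sample 1 the log2 fold change was 0.71 (adjusted p = 0.030, range over the alternatives 0.0088 to 0.272).

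Cd276 encodes B7-H3, a B7 family protein whose receptor is not settled. It had 0.0925, 0.044 and 0.113 FPKM in the vehicle samples and 0.0572, 0.0654 and 0.0132 FPKM in the DS-5272 samples. The groups overlapped and the values rest on an estimated 6 to 16 fragments in vehicle and 1 to 7 in treated samples. Without the level filter the log2 fold change was -0.05 ± 0.03 (limma adjusted p = 0.287). Its exons overlap Gm10657 on the opposite strand.

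Lgals9 encodes galectin-9, a secreted and surface lectin that binds TIM-3 among other glycoproteins. It lies on the minus strand at chr11:78962974-78984946. The upstream sequence is given because it held matches to the core letters bound by interferon regulatory factors (IRF). The motifs searched on both strands in the 250 bases before each RefSeq start were AANNGAAA (IRF core), TTCNNNGAA (gamma-activated site), ACGTG and GCGTG (hypoxia response element core) and the p53 half-site. Capitals mark the IRF core on either strand in chr11:78984947-78985174, minus strand, GRCm38.p6.
Lgals9 upstream: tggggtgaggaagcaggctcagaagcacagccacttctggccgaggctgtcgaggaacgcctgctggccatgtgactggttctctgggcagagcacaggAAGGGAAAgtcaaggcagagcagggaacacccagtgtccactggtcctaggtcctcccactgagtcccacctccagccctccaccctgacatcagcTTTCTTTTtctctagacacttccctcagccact
Of the 10 ligand genes, 8 had an upstream sequence in the table. AANNGAAA was found for 4 of them, Lgals9, Cd274, Pdcd1lg2 and Tnfrsf14, and 21.3% of all 32851 promoters hold it. The Lgals9 matches lay 151 to 144 and 55 to 48 bases before the start, and the Cd274 match lay 175 to 168 bases before the start, outside the stretch printed above. TTCNNNGAA, which 7.02% of promoters hold, ACGTG, which 16.6% hold, and the p53 half-site, which 7.13% hold, were in none of the 8 windows. GCGTG, held by 28.2% of promoters, was in the windows of Cd274, Nt5e and Tnfrsf14. In Tnfrsf14 there were 2 matches to the IRF core that shared bases, and no other matches overlapped. These are letter matches only and say nothing about binding.

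Lgals9 was by far the most abundant ligand mRNA, with 185, 172 and 172 FPKM in vehicle samples and 287, 251 and 313 FPKM in DS-5272 samples. The groups were clearly apart. The mean was 1.60-fold higher and the log2 fold change was 0.67 ± 0.12 (SE, limma adjusted p = 0.0061). With quantile normalization the log2 fold change was 0.31 and the call was lost (adjusted p = 0.130), while the other 14 alternatives kept it.

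Pvr encodes CD155, which binds the activating receptor CD226 (DNAM-1) and the inhibitory receptors TIGIT and CD96 on NK and T cells. Its level was 10.6, 9.21 and 9.75 FPKM in vehicle samples and 21, 17.8 and 17.2 FPKM in DS-5272 samples. Both groups were tight and did not overlap, with replicate 1 the highest in each. The mean was 1.90-fold higher (log2 fold change 0.86 ± 0.11, SE, limma adjusted p = 0.0032), and the gene was called under all 15 alternatives.

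Tnfrsf14 encodes HVEM, which binds the inhibitory receptors BTLA and CD160 and the cytokine LIGHT. It had 24.0, 17.5 and 17.1 FPKM in vehicle and 33.5, 21 and 23 FPKM in DS-5272 samples. Vehicle sample 1 was above DS-5272 samples 2 and 3, so the groups overlapped, and replicate 1 was again the highest of each group. The log2 fold change was 0.38 ± 0.21 (limma adjusted p = 0.175), and with the replicate block it was 0.38 ± 0.10 (adjusted p = 0.023).

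Nt5e encodes CD73, the surface enzyme that makes adenosine from AMP, and adenosine restrains T and NK cells through its receptors. Vehicle samples had 0.676, 0.438 and 0.65 FPKM of Nt5e, compared with 5.85, 4.49 and 5.79 FPKM after DS-5272. It went from under 1 FPKM to a mean of 5.38 FPKM, near the vehicle mean of Cd274. The mean was 9.14-fold higher, with an estimated 61 to 116 fragments in vehicle and 506 to 750 in treated samples. The log2 fold change was 2.0 ± 0.15 (SE, limma adjusted p = 6.9e-04), and it was 3.0 with a pseudocount of 0.1 because of the low vehicle level.

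Among vehicle cells, the order of mean FPKM from high to low was Lgals9, Tnfrsf14, Icosl, Pvr, Cd274, Cd80, Nt5e, Cd86, Cd276 and Pdcd1lg2. The ranges of neighbours in this order were separate except for Cd276 and Pdcd1lg2. After DS-5272, Cd274 had rank 3 by its mean, behind Lgals9 and Tnfrsf14. The ranges of Tnfrsf14 and Cd274, of Cd274 and Icosl, of Icosl and Cd80 and of Cd80 and Pvr overlapped, so neighbours among these 5 did not differ beyond their spread, while Nt5e, Cd86, Pdcd1lg2 and Cd276 followed in separate steps. Against all genes above 0, Cd274 moved from percentile 52.9 of the vehicle means to percentile 77.7 of the DS-5272 means.

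The log2 ratio of Cd274 to each of the other 9 ligands was taken within each sample, where the scaling of a library cancels apart from the pseudocount. The ratio to Lgals9 was -4.76, -4.71 and -4.84 in vehicle and -3.74, -3.46 and -3.23 in DS-5272 samples. PD-L1 mRNA thus gained on galectin-9 mRNA in every treated sample, by 1.29 on average. The ratio to Pvr rose by 1.11, to Icosl by 1.45 and to Tnfrsf14 by 1.59, with no overlap of the groups. Each of these had a two-sided exact permutation p of 0.1, the smallest that 3 against 3 samples can give, and 0.13 after adjustment over the 9 ratios. The ratios to Cd276, Pdcd1lg2 and Cd86 also had p = 0.1 by the exact permutation test, but their differences depended on the pseudocount, going from 2.02 to 2.46 with 0.1 and 3.22 with none for Cd276, which rests on 1 to 16 fragments a sample, from 1.72 to 0.90 and -0.27 for Pdcd1lg2, and from 0.81 to -0.55 and -1.15 for Cd86. The ratio to Nt5e differed by -0.04 with overlapping groups (exact permutation p = 1.0), but by -0.87 with a pseudocount of 0.1 and -1.06 with none, without overlap (exact permutation p = 0.1 for both). With the pseudocount of 1 it was 0.05 without vehicle sample 2 and 0.14 without DS-5272 sample 1. The directions for Pdcd1lg2, Cd86 and Nt5e thus depended on the pseudocount or on single samples, while for Cd276 only the size did. The ratio to Cd80 differed by -0.35 (exact permutation p = 0.7), with overlapping groups, and was 0.16 without DS-5272 sample 3.

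**Figure D3:**
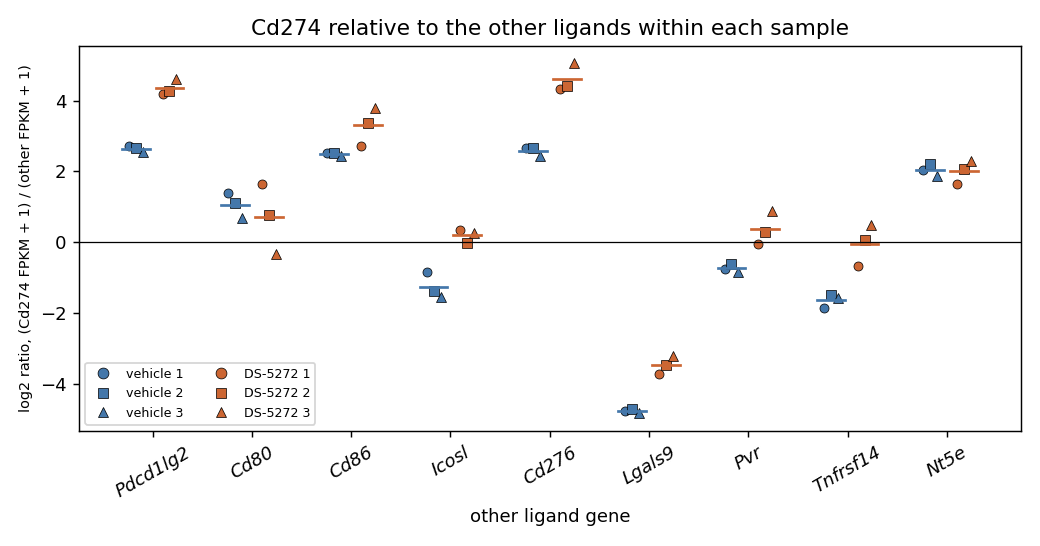
Log2 ratio of Cd274 to each other ligand gene (FPKM + 1 in both) in each vehicle sample (blue) and DS-5272 sample (orange), with bars at the group means (n = 3). With this pseudocount the groups are apart for 7 ligands and overlap for Cd80 and Nt5e.

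The 5 tested genes with the profile most like that of Cd274 over the 6 samples were 4930420K17Rik, Acvrl1, Zswim6, Ptgfrn and Sh3glb1, with root mean square log2 differences of 0.08, 0.09, 0.10, 0.11 and 0.12 among 10750 genes compared. Sh3glb1, at 24.7, 23.4 and 19.1 FPKM in vehicle and 64.9, 76.0 and 110 FPKM in DS-5272 samples, was the most abundant of them. With a pseudocount of 0.1, 0 of these 5 stayed among the 5 most alike, so this set depends on the log scale used. Of the 5, 4930420K17Rik, Acvrl1 and Ptgfrn averaged under 1 FPKM in vehicle, where the pseudocount compresses differences, and passed the level filter through their DS-5272 samples alone.

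Genes known to act on Cd274 transcription were considered next. Of 18 such genes, all tested, 13 were upregulated, 1 was downregulated and 4 were not called, compared with 24.2% upregulated and 22.0% downregulated of all tested genes. Their median log2 fold change was 0.73, compared with 0.04 over all tested genes. Stat2, which acts in type I interferon signaling, went from 18.6, 17.1 and 14 FPKM to 56.8, 32.1 and 49.5 FPKM (log2 fold change 1.39 ± 0.22, limma adjusted p = 0.0049). Irf1, an interferon-induced factor that acts on the Cd274 promoter, had 24.4, 30.7 and 33.5 FPKM in vehicle and 49.4, 75.6 and 104 FPKM in DS-5272 samples (1.29 ± 0.27, adjusted p = 0.010). For both factors all treated samples were above all vehicle samples.

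Socs3, a feedback inhibitor of JAK-STAT signaling, had the largest rise of the list, 2.21 ± 0.26 (limma adjusted p = 0.0024). Hif1a, the oxygen-regulated factor, went from 39.8, 42.4 and 42.6 FPKM to 86.0, 79.2 and 98.0 FPKM (1.05 ± 0.11, adjusted p = 0.0016). Hif1a mRNA was tight within each group, whereas HIF-1α is regulated largely at the protein level, which was not measured here. Myc, a growth-promoting transcription factor, was the only gene of the list called as lower in the main fit (log2 fold change -1.23 ± 0.36, adjusted p = 0.031), with 49.5, 45.9 and 50.8 FPKM in vehicle and 30.2, 26.1 and 10.3 FPKM in DS-5272 samples. Its call was lost without the level filter (adjusted p = 0.063) and when any vehicle sample was left out (adjusted p 0.077 to 0.082). Ifngr1, the ligand-binding chain of the interferon-gamma receptor and the most abundant of the list, was not called (0.34 ± 0.14, adjusted p = 0.088; with the replicate block 0.042) and its sign turned with quantile normalization.

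**Figure D4:**
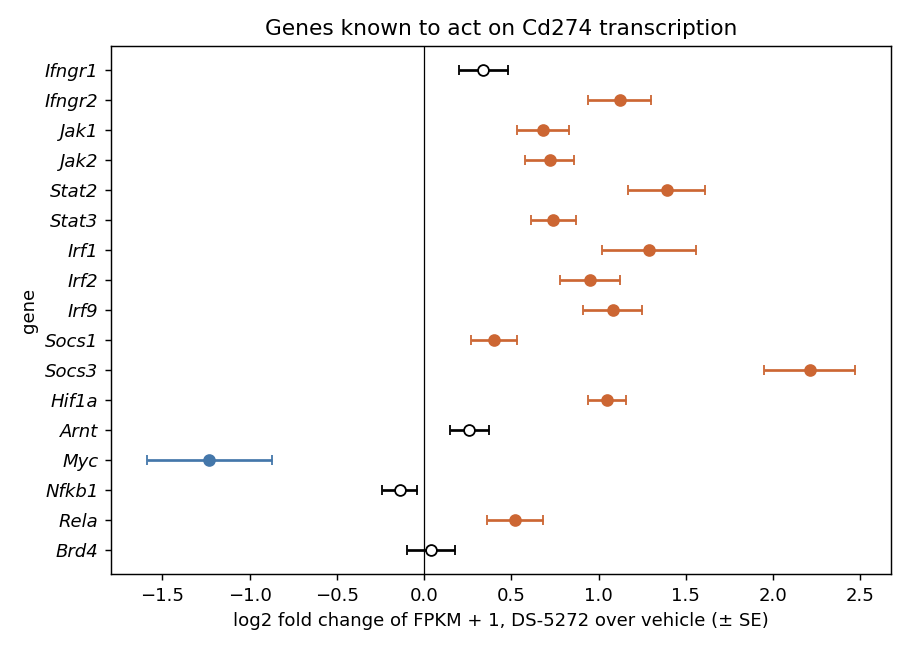
Log2 fold change of FPKM + 1 (DS-5272 over vehicle, with SE bars, n = 3 a group) of 17 of the 18 genes known to act on Cd274 transcription. Orange points rose and the blue point fell at an adjusted p under 0.05, and open points were not called; Socs3 at 2.21 and Myc at -1.23 are the extremes.

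Of 9 genes known to act on PD-L1 protein, 8 were tested, 2 were upregulated and 3 were downregulated, with a median log2 fold change of -0.02. Of all tested genes, 24.2% were upregulated, a share near that of this list, and 22.0% downregulated. Cmtm6, a membrane protein that protects PD-L1 from degradation, had 30.9, 32.1 and 33.9 FPKM in vehicle and 49.8, 50.5 and 54.6 FPKM in DS-5272 samples (0.66 ± 0.09, limma adjusted p = 0.0034). Spop, the adaptor of a ubiquitin ligase that acts on PD-L1, rose by 0.63 ± 0.11 (adjusted p = 0.0057), but not past the threshold after scaling to a common total (adjusted p = 0.052). These genes have opposite known roles for the protein and rose by similar amounts. Cdk4, a cell cycle kinase that acts on Spop, fell by 1.31 ± 0.25 (adjusted p = 0.0079). Cops5, a deubiquitinating subunit of the COP9 signalosome, fell by 0.42 ± 0.12 (adjusted p = 0.032), and Stub1, a ubiquitin ligase, fell by 0.34 ± 0.11 (adjusted p = 0.040). Both of these lost their calls when any vehicle sample was left out (adjusted p 0.077 to 0.126), Cops5 also without DS-5272 sample 1 (adjusted p = 0.054) and Stub1 also without DS-5272 sample 2 or 3 (adjusted p = 0.0504 and 0.057). Cdk6, the most abundant of the list over all 6 samples, was not called (-0.30 ± 0.13, adjusted p = 0.099; with the replicate block 0.031).

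A list of 33 other ligands and regulators of T and NK cells had 30 genes with an entry of their own and 14 tested. Of these, 9 were upregulated and 2 downregulated, with a median log2 fold change of 0.92. Over all tested genes, 24.2% were upregulated and 22.0% downregulated, with a median log2 fold change of 0.04. Without vehicle sample 2, 5 were upregulated, compared with 14.8% of all tested genes in that fit. Lgals3, encoding galectin-3, went from 19.5, 49.0 and 38.4 FPKM to 173, 268 and 388 FPKM (2.94 ± 0.40, limma adjusted p = 0.0034). Nectin2, which encodes CD112 and shares the receptors CD226 and TIGIT with the Pvr product, had 10.4, 13.4 and 11.9 FPKM in vehicle and 40.4, 34.7 and 44.6 FPKM in DS-5272 samples (1.66 ± 0.14, adjusted p = 8.4e-04). Both mRNAs for these nectin-type ligands were thus upregulated. Cd24a, encoding a ligand of inhibitory Siglec receptors, rose by 1.45 ± 0.37 (adjusted p = 0.019), and its call was lost without vehicle sample 1, vehicle sample 2 or DS-5272 sample 2 (adjusted p 0.058 to 0.063). Ulbp1, encoding a stress ligand of the activating NK receptor NKG2D, had 16.4, 14.1 and 12.6 FPKM in vehicle and 5.03, 8.79 and 8.21 FPKM in DS-5272 samples (-0.91 ± 0.20, adjusted p = 0.013). Hmgb1, a chromatin protein that can act outside cells, fell by 1.24 ± 0.17 (adjusted p = 0.0033). Cd47, encoding the signal that inhibits uptake by macrophages, was the most abundant of the list and was not called (0.32 ± 0.14, adjusted p = 0.088; with the replicate block 0.038), and its sign turned with quantile normalization.

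Around Nt5e, 6 of 10 adenosine pathway genes were tested, 3 were upregulated and 0 downregulated, compared with 24.2% and 22.0% of all tested genes. Their median log2 fold change was 0.29. With the replicate block 1 was downregulated, as were 2771 of all 11130 tested genes in that fit. Entpd1, encoding CD39, which supplies AMP to CD73, had 34.3, 32.4 and 36.0 FPKM in vehicle and 53.6, 46.7 and 71.5 FPKM in DS-5272 samples (0.71 ± 0.16, limma adjusted p = 0.014; 0.055 without vehicle sample 2). Both enzymes of the route from ATP to adenosine therefore had more mRNA in treated cells. Adora3, an adenosine receptor gene, rose by 2.06 ± 0.21 (adjusted p = 0.0016), and Adk, the kinase that removes adenosine inside cells, by 0.56 ± 0.12 (adjusted p = 0.010).

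The receptors of these ligands were mostly near 0. Of 11 receptor genes, 1 was tested, Btla, with 5.18, 2.97 and 3.27 FPKM in vehicle and 6.23, 4.26 and 1.90 FPKM in DS-5272 samples. The groups overlapped (0.03 ± 0.35, limma adjusted p = 0.957) and the sign depended on the scaling. Pdcd1, encoding PD-1, was at most 0.0187 FPKM in any sample.

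Markers of other cells were measured in the same samples. Of 10 bone marrow macrophage markers, all tested, 5 were upregulated, compared with 24.2% of all tested genes. With the replicate block 7 were upregulated, compared with 30.3% of all tested genes in that fit. Mrc1 and Spic, with vehicle means of 0.424 and 0.179 FPKM, passed the level filter through their DS-5272 samples alone. The summed FPKM of the 10 markers was 66.0, 86.7 and 118 in vehicle and 462, 205 and 266 in DS-5272 samples. Vcam1 was the most abundant of them and was not called (0.74 ± 0.35, limma adjusted p = 0.125). The complement gene C1qb had 1.97, 1.53 and 2.95 FPKM in vehicle and 58.2, 14.1 and 15.6 FPKM in DS-5272 samples, highest in DS-5272 sample 1. Adgre1, also upregulated (2.05 ± 0.25, limma adjusted p = 0.0025), went from 16.7, 17.6 and 23.3 FPKM to 59.8, 79.1 and 116 FPKM. It was highest in DS-5272 sample 3, and all other markers of the list were highest in DS-5272 sample 1. Among the ligands, Cd86, Pvr, Tnfrsf14 and Nt5e had their highest value in DS-5272 sample 1, Nt5e only narrowly (5.85 FPKM, and 5.79 in sample 3). In vehicle, the same genes and Cd274, Lgals9 and Pdcd1lg2 were highest in sample 1, where the macrophage sum was lowest. Cd80, Icosl and Cd276 were highest in vehicle sample 3, where that sum was highest. Cd274, Cd80, Icosl, Lgals9 and Pdcd1lg2 were highest in DS-5272 sample 3, the shallowest library. The part of macrophage RNA in the ligand changes was not tested, and some of these markers, such as Adgre1 and Vcam1, can also be expressed by myeloid leukemia cells. For its western blots and qPCR the paper collected GFP+ MLL-AF9 cells from marrow, a gate on the marker coexpressed with the oncogene.

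Erythroid markers were led by Hba-a1, with 2.39, 1.05 and 0.598 FPKM in vehicle and 84.2, 14.7 and 7.07 FPKM in DS-5272 samples, and the list summed to 3.77, 2.36 and 1.87 FPKM in vehicle and 90.3, 16.7 and 8.20 in DS-5272 samples, with Car1 at 0 in all 6. Of its 5 genes with an entry of their own, 2 were tested and 1, Hba-a1, was upregulated (limma adjusted p = 0.018; 0.057 without vehicle sample 2 and 0.055 without vehicle sample 3). None of 7 NK cell or 6 T cell markers reached the level filter. The NK list, led by Gzma, summed to 0.824, 0.528 and 0.966 FPKM in vehicle and 3.75, 2.03 and 1.91 FPKM in DS-5272 samples, and the T cell list, led by Thy1, to at most 1.52 FPKM in any sample. Of 6 B cell markers, led by Cd79b, 1 was tested and not called, and their sums were 4.85, 5.02 and 4.32 in vehicle and 4.34, 4.05 and 3.39 in DS-5272 samples. Of 7 dendritic cell markers only Itgax, which encodes CD11c and is not restricted to dendritic cells, was tested, passing the level filter through its DS-5272 samples alone. It had a mean of 0.582 FPKM in vehicle and rose from 0.744, 0.554 and 0.449 FPKM to 3.02, 8.74 and 7.43 FPKM (2.13 ± 0.33, adjusted p = 0.0045). The whole list summed to 0.952, 0.757 and 0.603 in vehicle and 3.59, 9.17 and 7.84 in DS-5272 samples, while Xcr1, Clec9a, Zbtb46 and Siglech stayed at or below 0.299 FPKM. Of 5 stroma and endothelium markers, led by Col1a1, 1 was tested and not called (adjusted p = 0.084; with the replicate block 0.0040), with sums from 1.21 to 2.63 in vehicle and 3.14 to 6.60 in DS-5272 samples.

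**Figure D5:**
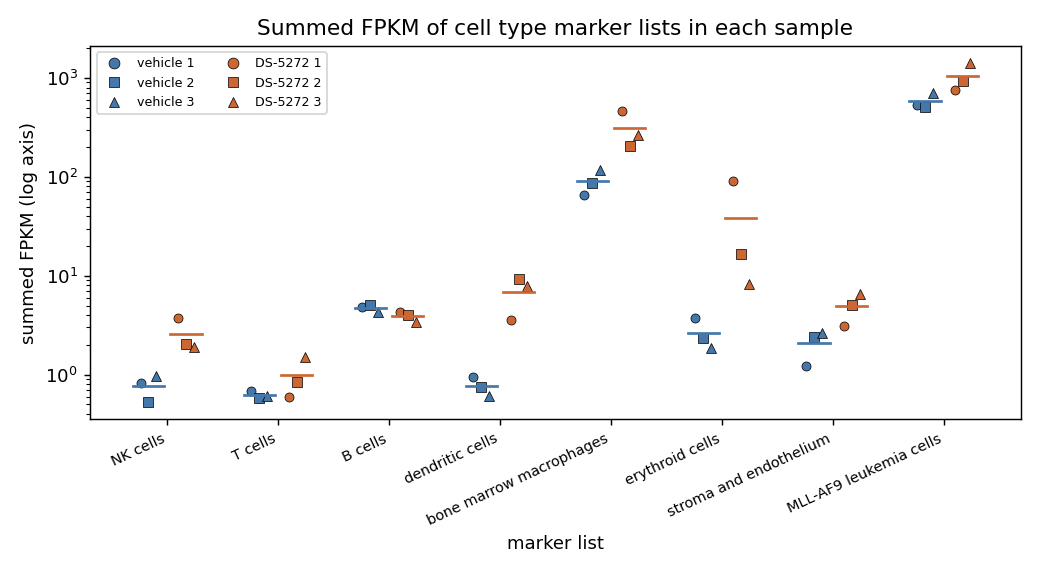
Summed FPKM (log axis) of 8 lists of cell type markers in each vehicle sample (blue) and DS-5272 sample (orange), with bars at the group means (n = 3). The macrophage and erythroid sums are highest in DS-5272 sample 1, at 462 and 90.3, and the NK and T cell sums stay at or below 3.75.

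Leukemia markers were read in the same samples. They cannot test the label of the sorted cells, because normal myeloid and progenitor cells of the marrow can also express such genes. Of 7 leukemia markers, 5 had an entry of their own and all 5 were tested. Ptprc (CD45) had 66.0, 76.5 and 84.5 FPKM with vehicle compared with 141, 169 and 214 FPKM with DS-5272, and Itgam (CD11b), the most abundant over all 6 samples, had 140, 175 and 190 FPKM and 530, 646 and 1090 FPKM. Both rose, by 1.18 ± 0.18 (limma adjusted p = 0.0041) and 2.1 ± 0.28 (adjusted p = 0.0031). Kit, encoding the progenitor receptor c-Kit, fell by 1.96 ± 0.30 (adjusted p = 0.0046), and Mpo, the primary granule peroxidase, fell by 5.07 ± 0.49 (adjusted p = 0.0014). Meis1, a cofactor of MLL fusions, was not called (0.24 ± 0.18, adjusted p = 0.310; -0.02 after scaling to a common total). All 5 were expressed in all 6 samples, and Itgam, Kit and Mpo, whose expression changes as myeloid cells mature, differed between the groups alongside the ligands. The part of maturation in the ligand changes was not tested.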

How the data were processed

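RNA-Seq libraries of 3 vehicle and 3 DS-5272 samples were used. Per the submitters' processing notes and the study's methods, the authors trimmed reads with cutadapt 1.8.1, aligned them with TopHat2 2.1.1 to GRCm38 and computed FPKM with Cufflinks 2.2.1. The deposited FPKM values, not counts, were the starting point. Lines sharing a symbol were summed, and 433 of 26632 lines that join several genes were not split. Depth and fragment numbers were estimated from the steps of low FPKM values.

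Log2(FPKM + 1) was compared with limma 3.58.1 in R 4.3.3 (empirical Bayes with a trend, two-sided, no covariate) over genes averaging 1 FPKM or more, with Benjamini-Hochberg adjustment and a threshold of 0.05. The script was tested on simulated data with independent noise and far fewer changed genes than here, which checks the code and not the calls in these data. Ratios were compared by exact permutation tests. Tables and plots were made in Python 3.11.15 with numpy 2.4.6, matplotlib 3.10.9 and pandas 2.3.3. Named genes were the 10 ligands, the 5 genes most like Cd274, the 3 largest rises and falls and the most abundant tested gene of each list, Hif1a, Jak2, Irf1, Myc and Cmtm6 whatever their values, the neighbours of Cd274, and the most abundant and absent marker genes. C1qb, Mrc1, Spic, Pdcd1, Adgre1, the dendritic cell genes and the leukemia markers other than Itgam were named after their values were seen. Some genes of the lists are not reported here by name. The ligands and lists were chosen with earlier results of these data known.

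The labels number the replicates 1 to 3 in both groups. Each sample's difference from its group mean was taken for every gene, and for same-numbered samples these differences had r = 0.66, 0.21 and 0.43 across genes. Differently numbered samples had r from -0.58 to 0.34, and vehicle 2 with DS-5272 3 (0.34) exceeded the 0.21 of number 2. Each same-numbered r was over 0.1, and the numbers were treated as possible pairs. These values do not establish a pairing, and the labels give no source for it. The main fit, set before the files were opened, had no block, and a replicate block was an alternative, which for Cd274 gave a log2 fold change of 1.97 (adjusted p = 0.0012). Other alternatives were a pseudocount of 0.1, no level filter or 5 FPKM, upper quartile, median ratio, common total and quantile scaling, no trend, and leaving out each sample. No filter together with the block, ratios without a pseudocount, and all alternatives for genes and lists beyond the ligands, the ratios and likeness included, were added after seeing the data. Motifs were chosen after the data were examined, and the IRF core replaced a longer interferon-response motif that contains it and had been searched first, with matches for Lgals9 and Tnfrsf14 only. Upstream sequences came from RefSeq (GRCm38.p6) and gene positions from the GENCODE annotation of GRCm38, except that the neighbours of Cd274 were taken from the RefSeq gene table.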

Additional observations from a re-analysis of the deposited data

How the results depend on the processing

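Cd274, Pvr, Nt5e and Plgrkt kept their direction and call under all alternatives in which they were tested. Among the single genes followed one by one, Cd274 and genes below the level filter apart, 871 values kept their direction and their side of the threshold, 41 kept their direction but lost a call, 14 kept it and gained one, and 17 changed sign. Other list genes also gained or lost calls and are counted only within their lists. The common total gave 1709 genes upregulated and the replicate block 3367. Leaving out 1 sample gave 1654 to 2920 genes upregulated and 1404 to 2446 downregulated, with fewer samples in the fit. With the replicate block, Icosl, Tnfrsf14, Cd47, Ifngr1, Cdk6, Cd5l, Spic and Col1a1 gained calls and Ric1 lost its own; it changed no other call of the named genes. Adding the block to the fit without a filter, chosen after seeing the data, gave adjusted p = 0.012 for Cd86, 0.034 for Pdcd1lg2 and 0.357 for Cd276.

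Log2 fold changes that changed sign were those of Btla (-0.02 with the upper quartile, -0.004 with median ratios, -0.17 with the common total, and -0.27 to 0.39 when 1 sample was left out), Cd47 (-0.11) and Ifngr1 (-0.03) with quantile normalization, Plpp6 (-0.003 with the upper quartile, -0.17 with the common total, -0.03 to 0.15 without 1 sample), Cdc37l1 (-0.12), Ak3 (-0.06) and Meis1 (-0.02) with the common total, and Cd163 (-0.18 to 0.88 without 1 sample). The cause was not tested.

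Counts of lists also moved, and so did those of all tested genes. Of all tested genes, 24.2% were upregulated in the main fit, 15.3% with the common total and 30.3% with the replicate block. The share was 21.7% with quantile normalization, 14.6% without a filter and 14.8% to 26.3% without 1 sample. Falls numbered 2451 in the main fit, 3565 with the common total, 2771 with the block, 3135 with quantile normalization and 2478 without a filter. The other ligands had 5 to 9 rises when 1 sample was left out, 6 with the common total and 11 with the replicate block. The receptors had 1 rise without a filter, because more genes were tested. The transcription list had 9 rises with the common total and 14 with the replicate block. It had 0 falls without a filter, 2 with the common total and with quantile normalization, and 0 to 1 without 1 sample. The protein list had 1 rise with the common total, 3 rises and 4 falls with the replicate block, and 4 falls with quantile normalization. Without 1 sample it had 2 to 3 rises and 1 to 3 falls. The adenosine genes had 1 fall with the replicate block and 0 to 1 without 1 sample. The neighbours of Cd274 had 1 rise with the common total and 0 to 1 falls without 1 sample.

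With a pseudocount of 0.1, the difference in log2 ratio of Cd274 was 0.90 to Pdcd1lg2, -0.55 to Cd86, 2.46 to Cd276 and -0.87 to Nt5e, and with none it was -0.27, -1.15, 3.22 and -1.06 in the same order. Leaving out 1 sample gave -0.83 to 0.16 for Cd80 and -0.19 to 0.14 for Nt5e. Of the 5 genes most like Cd274, 0 stayed with a pseudocount of 0.1 and 1 to 4 without 1 sample. Depth limits Pdcd1lg2 and Cd276 most.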

Other observations

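The spread of Cd80 among the treated samples led to a second comparison of profiles, made after its values were seen. The 5 tested genes with the profile most like that of Cd80 over the 6 samples were 1700047M11Rik, Il1r2, Tmcc1, Art2a-ps and C5ar1, with root mean square log2 differences of 0.32 to 0.39, wider than the 0.08 to 0.12 found for Cd274. Of these, 1700047M11Rik and Art2a-ps passed the level filter through their DS-5272 samples alone. Il1r2, the decoy receptor for interleukin-1, was at 9.43, 19.2 and 20.3 FPKM in vehicle and at 33.5, 84.0 and 150 FPKM in DS-5272 samples. C5ar1, the receptor for complement C5a on myeloid cells, had 9.96, 13.4 and 24.1 FPKM in vehicle and 49.8, 83.7 and 150 FPKM in DS-5272 samples. As for Cd80, sample 1 was the lowest and sample 3 the highest of each group for both genes. Genes chosen for likeness to Cd80 tend to share its order, so this carries no weight of its own.

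Outside the tested genes, some regulators below the level filter were also apart between the groups, chosen here after their values were seen. Il10, an inhibitory cytokine, had 0.0377, 0.0467 and 0.207 FPKM in vehicle and 0.404, 1.09 and 3.24 FPKM in DS-5272 samples. Adora2b, an adenosine receptor gene, had 0.0514, 0.189 and 0.116 FPKM in vehicle and 1.16, 1.30 and 1.11 FPKM in DS-5272 samples. In limma without the level filter the adjusted p was 0.092 for Il10 and 0.0029 for Adora2b.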
